A study of Mus musculus with 14 samples.

Results

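This report describes 106 genes whose lowest level in the 5 leukaemia libraries labelled Lmo2-dependent or evolving without doxycycline (Dox) lay above their highest level in the other 9 libraries of the study. They came from a table of 12421 listed genes, of which 9896 were protein-coding and lay off chromosomes X and Y. A gene also had to differ by at least 1.5 between the means of both sets of libraries, on the scale log2(CPM + 1), where CPM is a gene's count scaled to the total of its library. A total of 122 genes met these conditions, and 16 of them (such as Cpa3, Erg, Hhex and Lyl1) were left out by name. The members were thus chosen by their measured levels in all 14 libraries, so every value that sets the 5 high libraries against the other 9 is a description and carries no test. A further 5 genes, Gng12, Hemgn, Zfp775, Prob1 and Abcg3, came closest to membership, their highest low library lying just above their lowest high one.

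The study sequenced RNA of mouse leukaemias of the T-ALL type that arise under the oncogene Lmo2 (model name VTL), to compare tumours that differ in how far they rely on it. The libraries fell into 5 groups: evolving tumours without Dox (VTL-21, VTL-25 and VTL-153), dependent tumours without Dox (VTL-19 and VTL-24), independent tumours with Dox (VTL-33, VTL-44 and VTL-81), the same 3 independent tumours without Dox, and the same 3 evolving tumours with Dox. Dox was given in food at 600 mg/kg. All tumours had first grown from VTL thymocytes in irradiated C57BL/6-Ly5.1;FVB F1 mice, and were then carried in C57BL/6-Rag1-/- hosts, which make no T or B cells of their own but keep myeloid and stromal cells. Donor cells were sorted from the host spleen as positive for both CD45.1 and CD45.2. The promoter that drives the transgene, the age of the mice and the time on Dox are not given in the sources used here. Each group holds 1 library per tumour, so n is the number of tumours.

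Library totals ran from 18214415 to 24048281 counts. A gene with 0 counts could have had up to 0.125 to 0.165 CPM, depending on the library (3 counts of the total, counting error only). Lmo2 was at 737, 301 and 535 CPM in VTL-153, VTL-21 and VTL-25 without Dox (evolving) and at 122 and 141 CPM in the dependent tumours VTL-19 and VTL-24. It was at 0.196 to 8.40 CPM in the 6 libraries with Dox. Among the independent tumours without Dox, VTL-33 was at 596 CPM, VTL-44 at 9.23 CPM and VTL-81 at 27.5 CPM. Lmo2 itself would therefore not have met the rule. Ikzf1, which encodes Ikaros, ranged over 808 to 2380 CPM. All 15 T-lineage markers examined (such as Cd3e, Lck and Bcl11b) were listed, and summed to 8143 to 10223 CPM in the 5 high libraries and 7711 to 11706 CPM in the other 9. Summed myeloid markers reached 2131 CPM in VTL-81 with Dox, 824 CPM in VTL-44 with Dox and 1601 CPM in VTL-44 without Dox, against 20.9 to 245 CPM in the remaining libraries. The tumours VTL-153 and VTL-25 without Dox stood close to each other: they differed by 4 genes when a gene had to pass 20 CPM on one side and stay under 0.5 CPM on the other, and each further pair of tumours without Dox by 21 to 131. With VTL-153 left out the rule found 123 genes, and with VTL-25 left out 121, each including 104 of the 106. Fewer libraries can only loosen the separation, so a gene could leave the set only through its mean difference.

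Lmo2 is a LIM-domain adaptor without DNA binding of its own. In blood progenitors it joins basic helix-loop-helix factors, GATA factors and Ldb1 into a complex that sits on E-box and GATA motifs. It is normally switched off as thymocytes commit to the T lineage, and when it stays on, thymocytes can keep an immature, self-renewing state from which leukaemia develops.

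Promoter windows (250 bases before to 50 bases after an annotated start, RefSeq, GRCm38.p6) were found for 74 of the 106 genes. The 3 shown here were chosen to show how far the motif content varied: Chil5, with the widest separation between the sets of libraries, Serpine2, which holds 1 of each motif, and Ankrd27, which holds none. Capitals mark CANNTG (the E-box) and GATAA, searched on both strands, and each window is printed on the strand of its gene. The windows are chr3:106032846-106033145 (minus strand) for Chil5, chr1:79858616-79858915 (minus strand) for Serpine2 and chr7:35585997-35586296 (plus strand) for Ankrd27.
Chil5: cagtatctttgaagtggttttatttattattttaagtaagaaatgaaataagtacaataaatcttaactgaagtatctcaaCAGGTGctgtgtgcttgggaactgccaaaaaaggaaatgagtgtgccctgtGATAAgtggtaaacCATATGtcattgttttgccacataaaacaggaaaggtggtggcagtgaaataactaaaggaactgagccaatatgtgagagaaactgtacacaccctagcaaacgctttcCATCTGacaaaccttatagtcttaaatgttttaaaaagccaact
Serpine2: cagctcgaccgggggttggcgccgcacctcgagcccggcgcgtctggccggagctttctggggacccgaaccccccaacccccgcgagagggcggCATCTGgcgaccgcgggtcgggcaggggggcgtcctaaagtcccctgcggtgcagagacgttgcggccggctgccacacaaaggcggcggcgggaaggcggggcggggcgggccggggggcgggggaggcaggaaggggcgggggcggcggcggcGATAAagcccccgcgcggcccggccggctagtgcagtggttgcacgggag
Ankrd27: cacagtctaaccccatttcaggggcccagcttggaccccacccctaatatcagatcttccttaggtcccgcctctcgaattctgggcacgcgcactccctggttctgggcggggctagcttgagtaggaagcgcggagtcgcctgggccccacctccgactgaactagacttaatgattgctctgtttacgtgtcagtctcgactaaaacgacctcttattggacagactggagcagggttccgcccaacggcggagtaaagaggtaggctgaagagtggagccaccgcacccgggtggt

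Over the 96 windows of the 74 genes, 70.8% held a CANNTG and 20.8% a GATAA, against 63.5% and 16.5% of the 9641 windows of listed protein-coding genes. CANNTG followed by 8 or 9 bases and GATA, close to the spacing known for the complex, was in none of the 96 windows. It was in 0.384% and 0.270% of the 9641. At shares this small, 96 windows are too few to show a difference. The windows of the 74 genes had a median GC content of 58.2%, against 61.0%, and a median observed-to-expected CpG ratio of 0.641, against 0.763. These shares describe the letters in the windows only.

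The differences between the 5 high libraries and the other 9 ran from 1.52 to 5.60, with a median of 2.39. A difference of at least 3 was seen in 32 genes, of 2 to 3 in 44 and of under 2 in 30. In 38 genes the lowest high library had at least 2 times the CPM of the highest low one. In 29 genes the mean of the 9 low libraries was under 1 CPM, and in 14 each of the 9 was. Separation in this direction was seen, at any size, in 268 protein-coding genes (2.71% of 9896), and in the opposite direction in 161 (1.63%). Just inside the threshold lay Enpp4 (1.52), Zfyve16 (1.55), Il12rb2 (1.56), Hrh2 (1.57) and Extl2 (1.57). Just outside it lay March9 (1.49), Gpc2 (1.49), Gpr171 (1.48), Eml2 (1.47) and Nmnat2 (1.43).

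**Figure D1:**
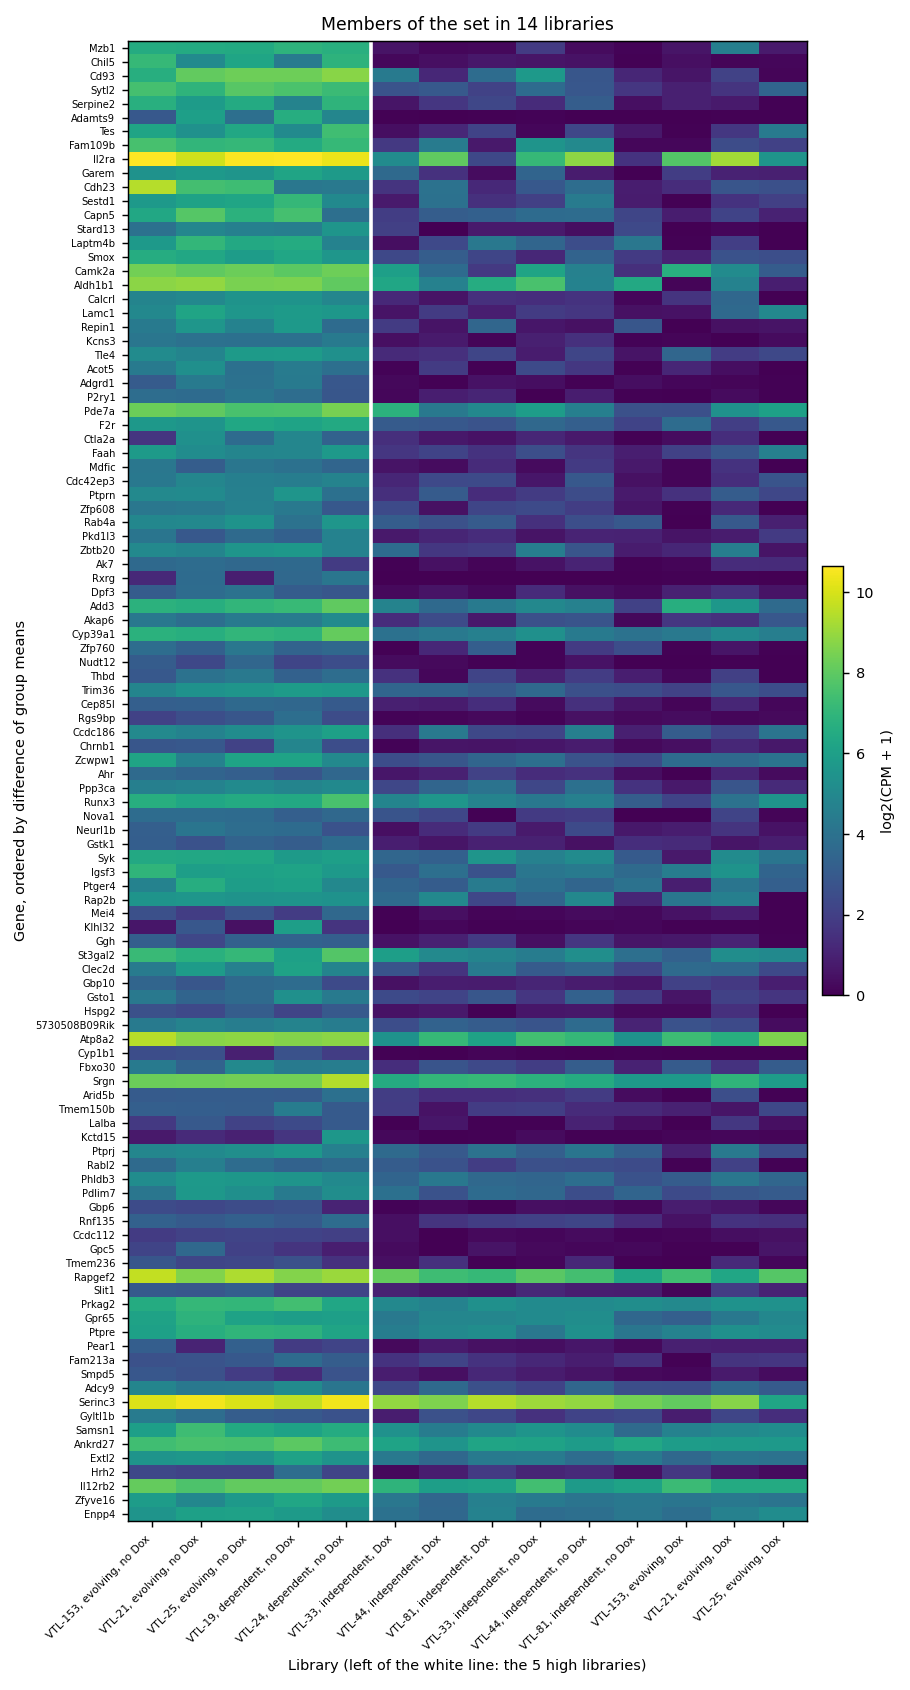
Level of each of the 106 genes (rows, ordered by the difference of means) in the 14 libraries (columns), as log2(CPM + 1) in colour; the white line parts the 5 high libraries from the 9 low ones. Every row is brighter left of the line, as the choice of genes requires, and Il2ra, Serinc3 and Rapgef2 are among the brightest rows on both sides.

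The widest separation was that of Chil5, a chitinase-like protein. It had 140, 33.02, 76.3, 19.5 and 118 CPM in VTL-153, VTL-21, VTL-25, VTL-19 and VTL-24 without Dox, the order in which the 5 high libraries are given throughout. In the 9 low libraries it ran from 0.0436 to 0.604 CPM, with a median of 0.340 CPM. The lowest high library thus lay 3.67 above the highest low one on the log2(CPM + 1) scale, the widest such gap of the 106 genes. Sytl2 followed with a gap of 3.21 and Adamts9 with 2.82. At the other end, Lamc1 was at 30.0 CPM in VTL-153 without Dox and 29.9 CPM in VTL-25 with Dox, and Add3 and Tmem236 had the next smallest gaps, so these 3 genes were separated by very little.

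Receptors and other surface proteins made up 16 of the genes, with differences of 1.56 to 5.59. Cd93, a lectin-like surface protein of early blood progenitors and endothelium, had 101, 271, 311, 314 and 424 CPM in the 5 high libraries. In the 9 low libraries it ran from 0.0981 to 51.4 CPM, with a median of 3.26 CPM, the highest being VTL-33 without Dox. Il2ra encodes the interleukin-2 receptor alpha chain (CD25), a marker of early thymocytes. It had 1559, 948, 1545, 1595 and 1268 CPM in the high libraries, against 1.96 to 570 CPM in the low ones, with a median of 139 CPM. The low libraries spread far more than the high ones. Il2ra was at 459 CPM in VTL-44 without Dox and 570 CPM in VTL-21 with Dox, but at 3.90 CPM and 1.96 CPM in VTL-81 with and without Dox. Thbd, which binds thrombin on cell surfaces, lies 28.5 kb from Cd93 on chromosome 2 and had 6.61 to 18.7 CPM in the high libraries, against 0 to 3.57 CPM in the low ones. F2r, the thrombin receptor, had 49.6, 45.1, 80.5, 72.1 and 87.3 CPM, against 2.96 to 12.6 CPM.

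Several of the surface genes are receptors coupled to G proteins. Calcrl, the calcitonin receptor-like receptor, had 27.1, 30.1, 43.3, 43.2 and 28.8 CPM in the high libraries, against 0 to 10.7 CPM in the low ones, with VTL-21 with Dox the highest. Adgrd1, an adhesion receptor, had 7.28, 19.7, 14.7, 19.8 and 6.48 CPM, against 0.0485 to 0.439 CPM. P2ry1, a receptor for ADP, had 6.30 to 16.6 CPM in the high libraries and 0 to 1.15 CPM in the low ones. These 3 were low throughout the 9 libraries apart from that 1 value of Calcrl. Ptger4 (a prostaglandin E receptor), Gpr65 (a proton sensor) and Hrh2 (a histamine receptor) were also in the set, with differences of 2.25, 1.73 and 1.57. Kcns3, a modulatory subunit of potassium channels, was even across the high libraries at 14.3 to 19.4 CPM, against 0 to 1.78 CPM in the low ones.

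Signalling proteins inside the cell made up 17 genes, with differences of 1.60 to 4.24. Camk2a, a calcium- and calmodulin-dependent kinase, had 326, 266, 304, 247 and 314 CPM in the high libraries, against 1.70 to 103 CPM in the low ones, with a median of 24.3 CPM. Garem, an adaptor of growth factor signalling to ERK, had 41.9, 53.5, 46.1, 73.7 and 55.0 CPM, against 0 to 11.4 CPM. Stard13, a GTPase-activating protein, had 14.8, 28.2, 23.5, 22.3 and 46.1 CPM, against 0 to 4.05 CPM. In all 3 the lowest high library stood well clear of the highest low one. Syk, a kinase of immunoreceptor signalling that pre-B cells and early thymocytes use, had 83.9, 81.7, 79.9, 54.1 and 62.6 CPM in the high libraries, against 0.638 to 45.8 CPM in the low ones. Its highest low library was VTL-81 with Dox, which was the highest of the 9 for 19 of the 106 genes. That library also had the highest myeloid sum, whose part in the level of Syk was not tested. Others of the group act on cyclic AMP (Pde7a, Akap6 and Adcy9), on Rap GTPases (Rap2b and Rapgef2), or as the calcineurin catalytic subunit (Ppp3ca) and receptor phosphatases (Ptprj and Ptpre). Rap2b was the most even gene of the 106 over the high libraries, at 41.9 to 46.5 CPM, a ratio of 1.11, while it ran from 0 to 30.2 CPM in the low ones.

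**Figure D2:**
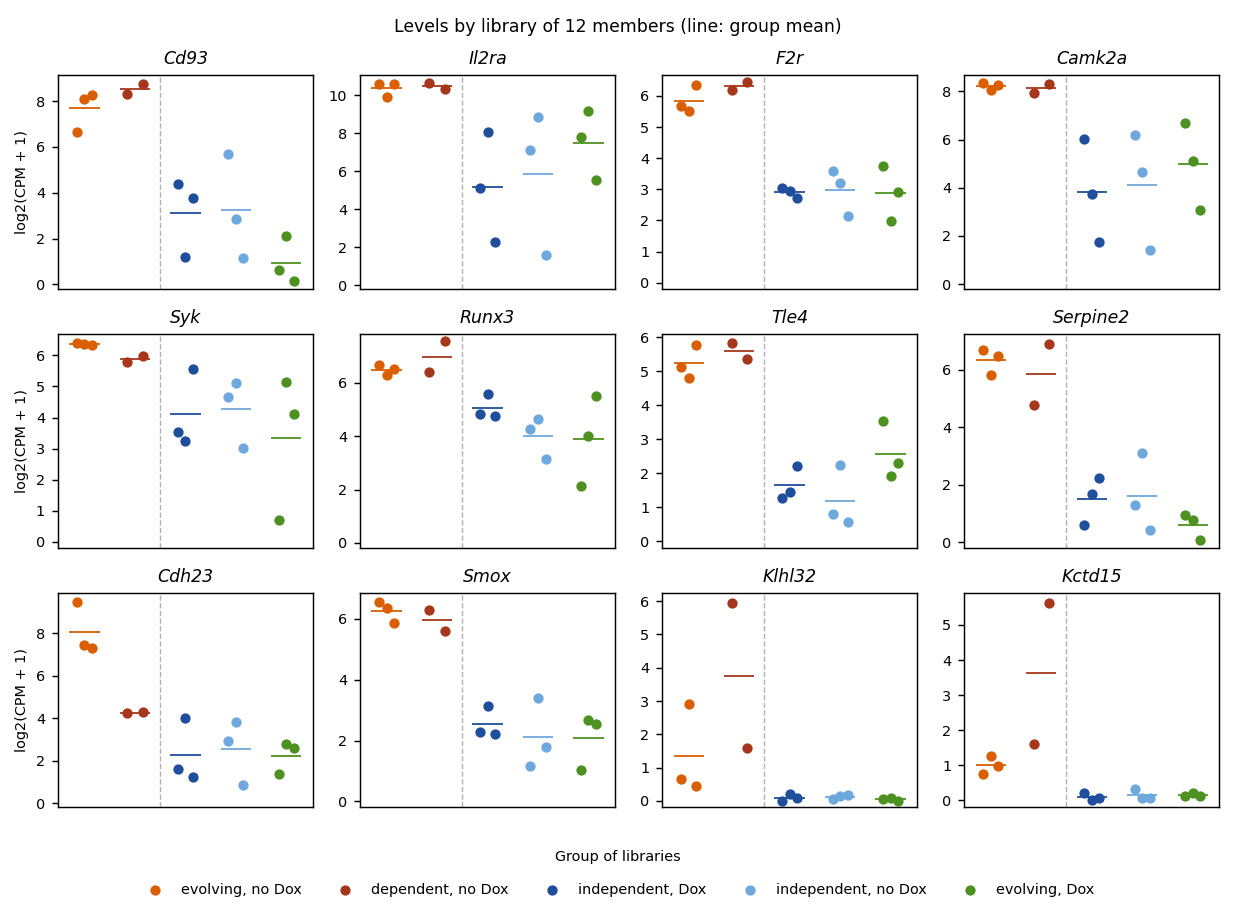
Levels of 12 of the genes in each library (points) and the mean of each group (line), as log2(CPM + 1); left of the dashed line are the 5 high libraries. Camk2a and Syk are tight in the high libraries and scattered in the low ones, while Cdh23, Klhl32 and Kctd15 are uneven among the high libraries themselves.

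Nuclear proteins made up 15 genes, with differences of 1.91 to 3.60. Tle4, a Groucho-type corepressor, had 34.1, 27.2, 54.1, 56.2 and 40.0 CPM in the high libraries, against 0.479 to 10.5 CPM in the low ones, with a median of 2.76 CPM. Repin1, a zinc finger protein, had 19.3, 47.1, 24.99, 53.1 and 12.04 CPM, against 0 to 10.5 CPM. Runx3, a Runt-domain factor of T-cell lineage choice, had 102, 77.4, 90.4, 84.1 and 189 CPM, against 3.39 to 46.7 CPM. Of these, Runx3 reached the highest level in the low libraries. Rxrg, a retinoid X receptor, was close to 0 in every low library, at 0 to 0.0502 CPM. Among the high libraries it was uneven, at 1.35 and 0.873 CPM in VTL-153 and VTL-25 and at 12.3, 11.2 and 17.1 CPM in VTL-21, VTL-19 and VTL-24. The group also held the aryl hydrocarbon receptor Ahr, the chromatin-associated factors Dpf3 and Arid5b, and the zinc finger genes Zbtb20, Zfp608 and Zfp760.

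Genes of the matrix, adhesion and cytoskeleton numbered 11, with differences of 1.75 to 4.91. Serpine2, a secreted inhibitor of thrombin and other serine proteases, had 104, 56.1, 89.5, 26.4 and 120 CPM in the high libraries, against 0.0491 to 7.75 CPM in the low ones, with a median of 0.932 CPM. Adamts9, a secreted metalloprotease, had 6.66, 62.5, 13.9, 97.4 and 28.3 CPM, against 0 to 0.0862 CPM. Tes, a LIM protein of focal adhesions, had 72.9, 41.3, 82.0, 33.1 and 166 CPM, against 0.0491 to 19.8 CPM. Adamts9 was at or near 0 in each of the 9 low libraries but varied 14.6-fold among the high ones, whereas Tes was at 19.8 CPM in VTL-25 with Dox. Cdh23, an atypical cadherin known from hair cells of the inner ear, had 709, 175, 160, 17.8 and 18.9 CPM in the high libraries, against 0.828 to 15.3 CPM in the low ones. Lamc1, a laminin chain, had 30.0 to 74.3 CPM, against 0.392 to 29.9 CPM. Srgn, the core protein of secretory granule proteoglycans, stayed high everywhere, at 305 to 684 CPM in the high libraries and 52.4 to 141 CPM in the low ones.

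Membrane traffic was represented by 9 genes, with differences of 1.55 to 4.99. Sytl2, which links Rab27 vesicles to the plasma membrane, had 180, 121, 231, 197 and 151 CPM in the high libraries, against 0.932 to 12.2 CPM in the low ones. Fam109b, an endosomal protein, had 184, 129, 136, 90.2 and 137 CPM, against 0.131 to 44.9 CPM. Laptm4b, a lysosomal membrane protein, had 53.1, 131, 84.9, 91.7 and 25.3 CPM, against 0 to 18.2 CPM. Sytl2 was low in all 9, but Fam109b was at 44.9 CPM in VTL-33 without Dox and 0.147 CPM in VTL-153 with Dox, so the low libraries differed widely among themselves.

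Enzymes numbered 17, with differences of 1.52 to 4.04. Capn5, a calcium-dependent protease, had 82.6, 224, 112, 181 and 13.8 CPM in the high libraries, against 0.785 to 12.6 CPM in the low ones. Smox, which oxidises spermine, had 94.2, 81.6, 57.8, 78.4 and 47.6 CPM, against 1.03 to 9.57 CPM. Aldh1b1, a mitochondrial aldehyde dehydrogenase, had 437, 484, 362, 371 and 261 CPM, against 0.0981 to 190 CPM. Capn5 and Smox were low in all 9, whereas Aldh1b1 was at 190 CPM in VTL-33 without Dox and below 1 CPM in VTL-153 and VTL-25 with Dox. Acot5, a peroxisomal acyl-CoA thioesterase with close paralogues, had 13.8 to 38.3 CPM, against 0 to 4.18 CPM. The group also held the cytochromes P450 Cyp39a1 and Cyp1b1 and the glutathione transferases Gstk1 and Gsto1.

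Among the 16 genes given no role group, Mzb1, an endoplasmic reticulum protein known from B-lineage cells, had the largest difference of all, 5.60. It had 92.1, 89.0, 86.9, 117 and 105 CPM in the high libraries. In the low libraries it ran from 0.0872 to 23.0 CPM, with a median of 0.465 CPM. The value of 23.0 CPM was in VTL-21 with Dox, where the summed B-cell markers were at 274.5 CPM. VTL-44 without Dox had the highest such sum, 411 CPM, and Mzb1 at 0.247 CPM. The part of B cells in these values was not tested. Those sums were 30.8 to 253 CPM in the high libraries and 18.6 to 411 CPM in the low ones, and the defining B-cell markers Cd79a, Ms4a1, Pax5 and Ebf1 were not among the listed genes. Mzb1 shares 57.2% of its annotated exon bases with SPATA24. Sestd1 had 32.6 to 135 CPM in the high libraries and 0.0491 to 20.4 CPM in the low ones.

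**Figure D3:**
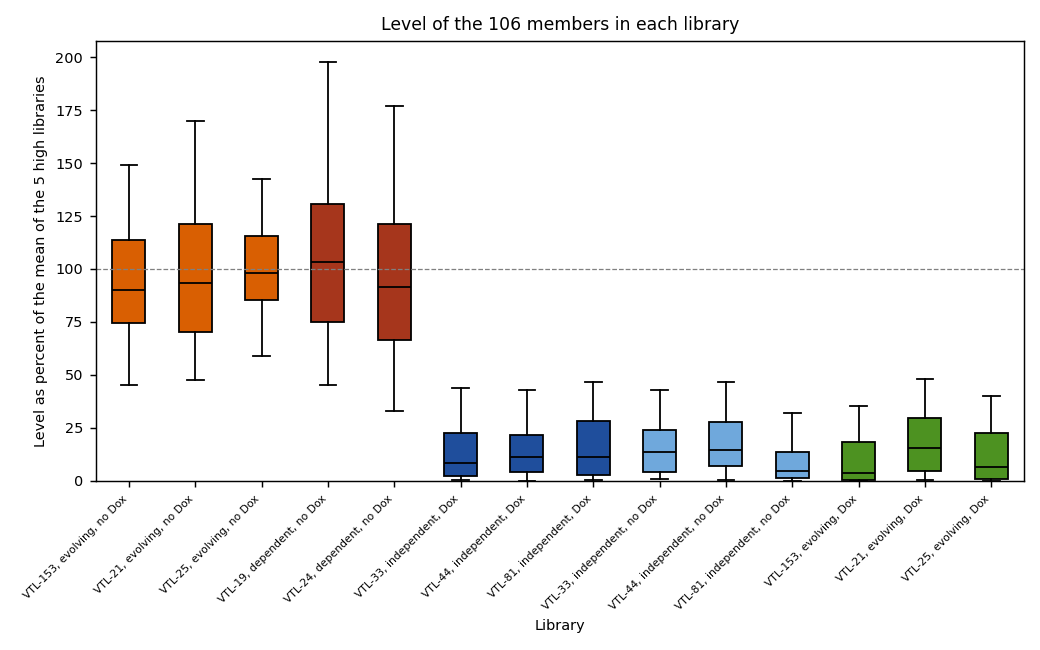
Level of the 106 genes in each library as percent of their mean over the 5 high libraries (boxes: quartiles; line: median; whiskers: 5th to 95th percentile). The medians of the 9 low libraries lie between 3.50% and 15.8%, lowest in VTL-153 with Dox and highest in VTL-21 with Dox.

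These genes were not equally low in all 9 low libraries. The median gene stood, as percent of its mean over the 5 high libraries, at 8.25%, 11.2% and 11.3% in the independent tumours VTL-33, VTL-44 and VTL-81 with Dox. It stood at 13.7%, 14.6% and 4.80% in the same tumours without Dox, and at 3.50%, 15.8% and 6.73% in the evolving tumours VTL-153, VTL-21 and VTL-25 with Dox. VTL-153 with Dox and VTL-81 without Dox were thus the lowest. The highest of the 9 was most often VTL-81 with Dox (19 genes), VTL-44 without Dox (18) or VTL-21 with Dox (18). In bulk RNA, fewer cells that express a gene and less RNA per cell cannot be told apart.

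Lmo2 was at 122 to 737 CPM in the 5 high libraries. In the low libraries other than VTL-33 without Dox it was at 0.196 to 27.5 CPM. Within each set, the medians of the 106 genes did not order strictly with Lmo2. VTL-33 without Dox had 596 CPM of Lmo2, above 4 of the 5 high libraries, yet the 106 genes stood there at a median of 13.7%. VTL-44 had 9.23 CPM of Lmo2 without Dox, and the genes stood at 14.6%. The label of the set as reliant on Lmo2 thus described the tumour class and the Dox status of the high libraries, and not the measured Lmo2 transcript in each library.

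**Figure D4:**
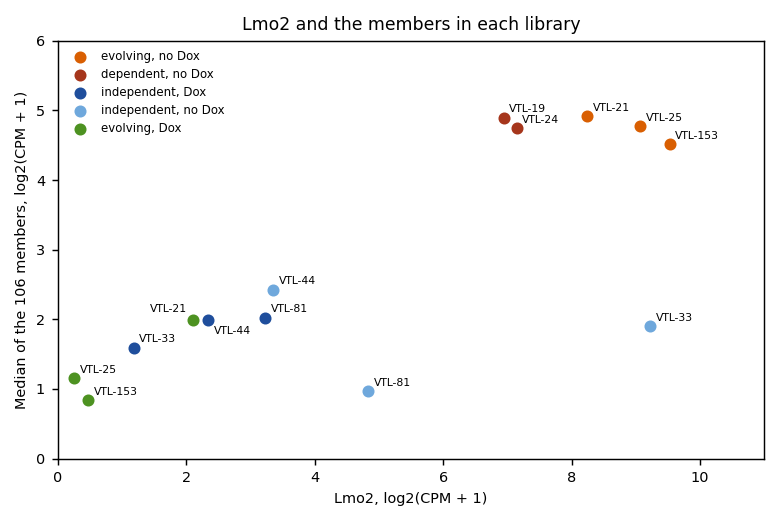
Lmo2 against the median of the 106 genes in each of the 14 libraries, both as log2(CPM + 1), coloured by group. The 5 high libraries sit at the top right; VTL-33 without Dox has a similar Lmo2 level but sits with the low libraries.

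The high libraries themselves came from evolving and dependent tumours. Over the 5, 33 genes stayed within 2-fold, and 8 were more than 10-fold apart: Gpc5, Adamts9, Capn5, Ctla2a, Rxrg, Cdh23, Kctd15 and Klhl32. VTL-24 was the lowest of the 5 for 31 genes, and VTL-19 the highest for 29. The choice of genes did not compare evolving with dependent tumours, so this contrast was tested. As each of the 5 libraries had to be high, genes low in either class could not be members, which limits differences here. The test set 3 evolving against 2 dependent tumours, with 12348 genes in the fit. All 106 genes entered it. Their median log2 fold change was -0.07, beside 0.01 for all genes tested. None passed edgeR's quasi-likelihood test at an adjusted p of 0.05, as was so for all genes (0.0% of 12348 in either direction). At an unadjusted p of 0.05, 3 of the genes were higher and 2 lower, beside 1.3% and 2.1% of all genes. In 8 of the genes every evolving tumour lay above both dependent ones (12.5% of all genes), and in 10 every evolving tumour lay below (7.76%).

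DESeq2 called 2 of the 106 in that contrast, beside 0.251% of all genes higher and 0.267% lower. In simulated data of this contrast DESeq2 called 80 unchanged genes, beside 64 genes called here. The simulation gave unchanged genes the same mean in every library and no shared tumour effect, so its false calls may not carry over. As edgeR called neither gene, these calls carry little weight. Cdh23 was at 160 CPM or more in all 3 evolving tumours, against 17.8 and 18.9 CPM in the 2 dependent ones. Its log2 fold change was 4.19 (SE 1.13, DESeq2 adjusted p = 0.0439), with 3 of 3 evolving tumours higher, and edgeR gave 4.20 (SE 1.20). Kctd15, a BTB-domain protein, had 0.676, 1.43 and 0.956 CPM in VTL-153, VTL-21 and VTL-25, against 2.08 and 48.4 CPM in VTL-19 and VTL-24. Its log2 fold change was -4.67 (SE 1.18, DESeq2 adjusted p = 0.0210), and it rested on VTL-24, since without that tumour edgeR gave -1.03. Klhl32 rested on 1 library likewise. It had 0.572, 6.47 and 0.374 CPM in the evolving tumours, against 60.7 CPM in VTL-19 and 1.99 CPM in VTL-24, and its edgeR estimate of -3.64 (SE 1.54) became 0.30 without VTL-19.

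Dox in the independent tumours was the second contrast that the choice of genes did not compare. All low libraries had to lie below the high ones, which capped the levels here and in the third contrast. In VTL-44 the median gene differed by -0.27 with against without Dox on the log2(CPM + 1) scale, with 71 genes lower and 32 higher. In VTL-33 it differed by -0.13, with 68 lower and 37 higher, and in VTL-81 by 0.53, with 14 lower and 91 higher. So 2 of the tumours leaned down and 1 up. Lower by 1 or more were 13.2% of the 106 in VTL-44 (6.02% of all genes), 18.9% in VTL-33 (2.35%) and 1.89% in VTL-81 (0.878%). Higher by 1 or more were 0.943% in VTL-44 (0.982% of all genes), 4.72% in VTL-33 (2.94%) and 31.1% in VTL-81 (6.75%). On the log2(CPM + 1) scale a 2-fold change of a gene near 0 CPM is smaller than 1. The choice made the 106 genes low here, so their shares and those of all genes are not a like comparison. In VTL-81 the myeloid sum was 2131 CPM with Dox against 207 CPM without, and in VTL-44 it was 824 CPM against 1601 CPM; the part of other cells in these values was not tested. By comparison, medians were -2.77 in VTL-153, -2.60 in VTL-25 and -2.19 in VTL-21, the evolving tumours, where the choice of genes fixed the direction.

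**Figure D5:**
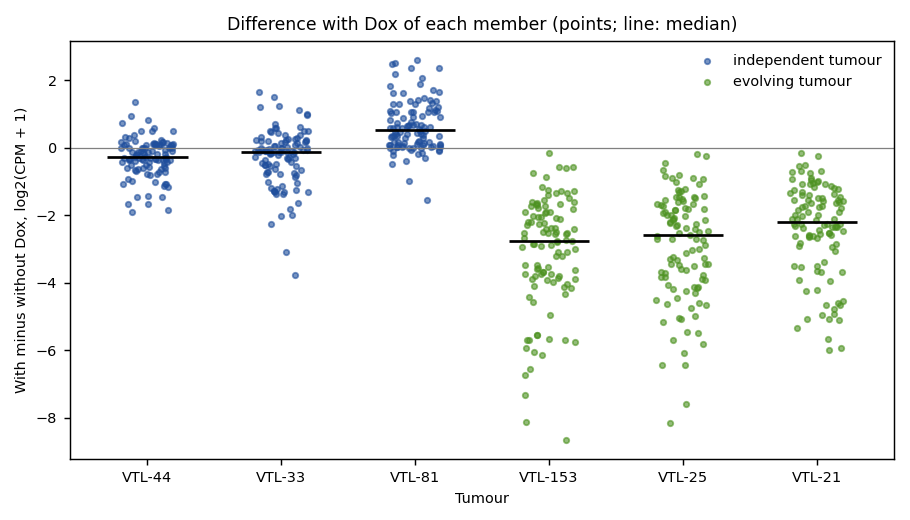
Difference with Dox minus without Dox of each of the 106 genes in each tumour, on the log2(CPM + 1) scale (points), with the median (black line). The 3 independent tumours have medians of -0.27, -0.13 and 0.53; all points of the 3 evolving tumours lie below 0, as the choice of genes requires.

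Over the 3 independent tumours together, 105 of the genes entered the fit over 12 libraries with tumour as a block. That filter included the evolving tumours without Dox, where the choice of genes made them high, and 87 genes passed it over the 6 independent libraries alone. None was called by edgeR in either fit (0.0% of 12360 genes higher and 0.0% lower in the first), or by DESeq2 or limma voom over the 12 libraries. Genes near 0 in all 6 independent libraries could not have been called. At an unadjusted p of 0.05 none was higher and 1 lower over the 12 libraries, beside 0.332% and 0.372% of all genes. Over the 6 libraries alone Runx3 was higher and Igsf3 lower at that p, beside 0.963% and 0.519% of all genes. Igsf3, an immunoglobulin-superfamily surface protein, had 6.90, 13.7 and 5.38 CPM with Dox in VTL-33, VTL-44 and VTL-81, against 17.2, 20.1 and 11.8 CPM without Dox. It was lower with Dox in 3 of 3 tumours, with a log2 fold change over the 12 libraries of -0.97 (SE 0.41, edgeR adjusted p = 1.0). Lalba, Gbp6 and Slit1 were also lower in all 3, which made 4 genes, 3.77% of the 106, beside 10.3% of all genes. With Dox higher in all 3 were 11 genes, 10.4% of the 106, beside 7.05% of all genes. Runx3 was one of them, with 27.7, 46.7 and 26.0 CPM with Dox, against 18.4, 24.2 and 7.89 CPM without.

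The third such contrast set the independent tumours with Dox against the evolving tumours with Dox, 3 against 3, all with low Lmo2. Of the 106 genes 84 passed the filter. None was called by edgeR (0.0% of 12093 genes in either direction), by DESeq2 (0.504% of all genes higher and 0.273% lower) or by voom. The median log2 fold change was 0.33, beside -0.01 for all genes tested, and 40.5% differed by at least 1 in either direction, beside 12.2%. The choice made the 106 genes low here, with medians of 0.785 to 3.07 CPM per library. Log2 ratios vary more at such levels, so these shares are not a like comparison. At an unadjusted p of 0.05, 2 were higher and 4 lower, beside 2.35% and 2.39% of all genes. Repin1 had 2.62, 0.485 and 10.5 CPM in the independent tumours VTL-33, VTL-44 and VTL-81, against 0, 0.401 and 0.491 CPM in the evolving tumours VTL-153, VTL-21 and VTL-25 (3.91, SE 1.52, edgeR adjusted p = 0.974), and its estimate was 2.43 without VTL-81. Capn5 had 2.79, 7.81 and 8.62 CPM, against 0.785, 3.41 and 1.03 CPM (1.89, SE 0.77). The 4 lower ones were Mzb1 (-4.85, SE 1.70), Lamc1 (-3.37, SE 1.39), Faah (-2.14, SE 0.81) and Igsf3 (-1.50, SE 0.60). Without VTL-25 the estimates were -2.11 for Lamc1 and -0.90 for Faah, and without VTL-21 Igsf3 was at -0.90. In 3 genes every independent tumour lay above every evolving one (4.4% of all genes) and in 5 below (5.16%). Of the 5, Mzb1 had 0.465, 0.146 and 0.165 CPM in the independent tumours, against 0.540, 23.0 and 0.687 CPM in the evolving ones, and most of its estimate came from VTL-21, without which it was -1.21.

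Gene lists for blood and thymus cell states gave the surroundings of the set. Early progenitor surface genes held 2 of the 106, Cd93 and Il2ra, among 13 listed of 17, and Cpa3 of that list was separated in the same direction. Of the early progenitor factors 20 of 27 were listed. Lyl1, Hhex, Erg, Fli1 and Myb were higher in all 5 high libraries than in any low one, and no factor was lower in all 5. Myb, a factor of progenitors and early thymocytes, had 906 to 1125 CPM in the high libraries, against 436 to 843 CPM in the low ones. Of the Lmo2 complex genes 13 of 14 were listed, and Lyl1 alone was separated. Among 15 T-lineage genes none was separated in either direction. Among 16 later thymocyte genes Cd28, the costimulatory receptor, was lower in all 5 high libraries, at 31.5 to 81.1 CPM, against 85.3 to 347 CPM, and none was higher. No gene of the 12 lists was called by edgeR in any of the 3 tested contrasts. DESeq2, which called 66 unchanged genes in simulated data of the third contrast, included Rag1 and Rag2 among its calls, both lower in the independent than in the evolving tumours with Dox, and voom called Rag1. Of the mast-cell and basophil list 4 of 10 genes were listed, without Ms4a2, Fcer1a, Tpsb2 and Cma1. It summed to 99.5 to 595 CPM in the high libraries and 1.32 to 52.1 CPM in the low ones. Most of the high sums came from Cpa3 (means 272 and 3.60 CPM), which met the conditions of the set and was left out by name. Kit, shared with the progenitor list, had means of 43.0 and 9.08 CPM, and Mcpt8 of 2.88 and 0.389 CPM. Hdc went the other way, with means of 2.16 and 3.92 CPM. Stromal and endothelial markers summed to 145 to 188 CPM in the high libraries, against 175 to 952 CPM in the low ones. Pdgfrb gave most of that difference (means 23.2 and 252 CPM), and Col1a2 and Vcam1 were also lower on average. Pecam1 (137 and 142 CPM) and Col1a1 (6.07 and 7.50 CPM) differed little. Erythroid markers summed to 3.52 to 17.8 CPM, against 0.932 to 152 CPM. The natural killer and innate lymphoid markers summed to 105 to 344 CPM, against 70.2 to 1523 CPM, most of it from Gzma (means 183 and 525 CPM). The part of other cells in the levels of the 106 genes was not tested. When the 3 libraries with the highest myeloid sums were left out, the rule found 126 genes, 104 of them among the 106. Leaving out libraries can only loosen the separation, so these counts are no test of that part.

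The genes were spread over all autosomes. Chromosomes 2 and 3 held 10 each, 1.31% and 2.18% of their listed protein-coding genes, and chromosome 9 held 1 (0.173%) and chromosome 11 held 2 (0.246%). Some were neighbours. On chromosome 2, Thbd (148404466 to 148408188, GENCODE M21, mm10) and Cd93 (148436640 to 148443563), both on the minus strand, had no listed protein-coding gene between them. On chromosome 7, Rgs9bp (35578993 to 35585582, minus strand) and Ankrd27 (35586244 to 35639226, plus strand) started 0.661 kb apart in opposite directions. Ankrd27, a Rab effector of endosomes, had 164, 190, 186, 246 and 155 CPM in the high libraries, against 44.05 to 82.9 CPM in the low ones. Rgs9bp, an anchor of a regulator of G-protein signalling, had 3.28, 4.86, 6.15, 13.2 and 4.63 CPM, against 0.0846 to 0.395 CPM. Both genes of this pair were thus separated, at very different levels. On chromosome 3, P2ry1 and Rap2b lay 353 kb apart with no listed protein-coding gene between them. The interferon-induced GTPase genes Gbp6 and Gbp10 overlap on chromosome 5 and are near-identical relatives, so how counts were split between them is uncertain. The median span of the 106 genes was 45.2 kb, beside 23.7 kb for all listed protein-coding genes, and their median exon length was 5.02 kb, beside 4.47 kb.

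Exons of 40 of the genes overlapped those of another annotated gene, and in 12 that other gene was itself listed. Il12rb2, a receptor chain for interleukin-12, shares 40.0% of its exon bases with Serbp1 on the opposite strand, and Tmem150b 28.2% with Brsk1. Whether the counting used strand is not given in the sources used here, so levels of such genes may include reads of their partner. Il12rb2 lay just inside the threshold, at 277, 205, 272, 271 and 329 CPM in the high libraries, against 54.6 to 168 CPM in the low ones.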

How the data were processed

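Per the submitters' processing notes, STAR 2.5.2b, the build mm10 and featureCounts were used; annotation and strand setting are not given in the sources used here. The deposited values were raw counts per gene, which the authors had not normalised, and 42 other per-sample columns were not used. All listed genes had at least 1 CPM in at least 2 libraries. CPM here used raw library totals. Tests used edgeR 4.0.16 in R 4.3.3 (TMM factors, default filter with minimum count 10, robust quasi-likelihood fit, Benjamini-Hochberg adjustment over all genes). They covered 8 libraries without Dox, 6 with Dox, or 12 of tumours sequenced both ways with tumour as block. SE is the size of the log2 change over the square root of F. DESeq2 1.42.0, limma 3.58.1 (voom), RLE factors, other filters, fits that were not robust and left-out tumours were alternatives.

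Pairing came from tumour numbers in the titles. Partner libraries' deviations from their group means correlated, across 12421 genes, by 0.0172 to 0.189 in evolving and 0.563 to 0.716 in independent tumours. The members and gene lists were chosen with earlier results of these data known. Named genes were the 25 with the largest difference, the 5 on each side of the threshold, the 3 smallest and 3 largest gaps, members of the lists and called genes; others, such as Syk, Runx3, F2r, Rap2b, Klhl32 and Igsf3, were named after their values were seen. Separate mice per tumour are not stated, so p-values measure the spread between tumours. Tested on simulated data, edgeR recovered 70% to 72% of 8-fold and 3% to 6% of 2-fold changes in the 3 contrasts. It called 0 to 5 unchanged genes, against 66 to 91 with DESeq2. The simulation had no shared tumour effect, so these rates may not carry over to the real data. The 91 were for Dox in the independent tumours, where DESeq2 called no gene in the real data. Some genes of the lists are not reported here.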

Additional observations from a re-analysis of the deposited data

Results flagged for a closer look

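Of the 106 genes, 11 were higher with Dox in all 3 independent tumours and lower with Dox in all 3 evolving tumours: Garem, Repin1, P2ry1, Rab4a, Pkd1l3, Runx3, Nova1, Pdlim7, Tmem236, Fam213a and Adcy9. They were flagged because the classes moved in opposite directions, but the choice of genes made all 106 lower with Dox in the evolving tumours. The difference between the classes was not tested. Higher with Dox in all 3 independent tumours were 10.4% of the 106 genes, against 7.05% of all genes in the table.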

How the results depend on the processing

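The rule found 117 genes with a pseudocount of 0.5 and 91 with 2, 102 with TMM-scaled library sizes, 103 with DESeq2 size factors, 147 at a difference of at least 1 and 76 at 2. Leaving out a tumour, which can only loosen the separation, gave 110 to 152. In evolving against dependent tumours DESeq2 called 2 of the 106 genes and 64 genes in all, and leaving out a tumour gave 0 to 1 genes in all. In independent against evolving tumours with Dox, DESeq2 called 94 genes in all (3 from the lists) and voom 1 (1 from the lists), and leaving out a tumour gave 0 to 4. Without the replicate block the median of the 106 genes with Dox in the evolving tumours was -2.96, against -3.27 with it. Leaving out tumours gave -3.83 to -3.15; the cause was not tested. Without the block none of the 106 was called with Dox in the independent tumours, as with it. Klhl32 in evolving against dependent tumours reversed to 0.30 without VTL-19, its 1 library far above the rest, and ranged from -6.09 to 0.30 over the left-out tumours. Among the 3 tested contrasts no other alternative called any of the 106. With 2 or 3 tumours a group, edgeR and voom seldom recovered 2-fold changes in simulated data, while DESeq2 recovered 22% to 43% of them and also called unchanged genes. By that simulation, smaller differences were mostly not detectable with edgeR. Its changed genes all lay above a minimum mean count, so its rates do not apply to the many of the 106 genes below it in the low libraries.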
